A study of Mus musculus with 6 samples.

Results

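The IL-4 program described here is a group of 10 genes in T follicular helper (Tfh) cells of the mouse: the cytokine genes *Il4*, *Il13*, *Il5* and *Il10*, the transcription factor gene *Gata3*, the receptor genes *Il17rb*, *Il1rl1* and *Il4ra*, the chemokine receptor gene *Ccr8*, and *Rad50*, a neighbour of *Il4*. They were chosen by symbol with their normalized counts in these same 6 libraries, and the difference between the groups, already known, so the members' values are a description and carry no test. All 10 are among the 14744 genes of the table. Of the members, 8 are among the 11296 genes tested, those with a normalized count of at least 10 in at least 3 libraries, while *Il13* and *Il5* were below that minimum.

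The series compared the transcripts of Tfh cells from mice of the genotype Bach2 fl/fl Cd4-cre with those of WT mice, to learn what the repressor Bach2 controls in these cells. Each of the 6 samples, 3 per genotype, held 10000 to 30000 cells sorted from mesenteric lymph nodes (MLNs) by the gate CD4+B220-CD44+PD-1+CXCR5+. Polyadenylated RNA was amplified as cDNA and sequenced. The values are read counts per gene that the authors divided by a size factor of the library, here called normalized counts. The samples are labelled C57BL/6, and the mice were 2 to 3 months old. In the Bach2 fl/fl Cd4-cre mice, Cre is driven by the *Cd4* promoter, so the floxed allele is cut in developing T cells and not in Tfh cells alone. The labels of the controls say WT and nothing further, whereas the study's text uses that name for littermates that carry Cd4-Cre, so whether these control cells expressed Cre was not settled here. No source says that replicates are separate animals, and errors and p-values therefore measure the spread between samples, which may be technical.

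WT replicate 1 stood apart from the other libraries. Its log2 values correlated with theirs at Pearson's r of 0.789 to 0.862, where all pairs without it gave 0.885 to 0.949, across 11296 genes that are not independent replicates. It had 11648 genes above 0, and no other library had under 13111. The difference of each of the 8 members tested is therefore given with all 6 libraries and without this one. Depth, as whole reads recovered from the steps of the values, was lowest in replicate 1 labelled Bach2-deficient, at 5045131, and highest in replicate 2 of that group, at 10987752.

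*Bach2*, the deleted gene, was looked at first as a check of the labels. Its normalized counts were 233, 222 and 105 in WT replicates 1, 2 and 3, and 399, 763 and 591 in replicates 1, 2 and 3 labelled Bach2-deficient. The gene was thus more abundant in every library in which it should be cut, which goes against the labels. In the limma fit its log2 fold change came to 1.68 (standard error 0.37, adjusted p = 0.141), or to 1.88 without WT replicate 1. DESeq2 on the 5 libraries with recovered reads gave 1.81 (adjusted p = 0.00118), and over all alternatives the adjusted p ran from 0.000186 with library weights in limma to 0.501 without replicate 1 labelled Bach2-deficient. With a trend in length and GC content removed, the log2 fold change of *Bach2* was 1.11. Counts per gene include exons that a deletion leaves in place, and *Bach2it1*, which lies inside an intron on the same strand, was higher in the same libraries, at 2.02, 19.1 and 5.20 against 50.3, 67.0 and 32.7 normalized counts. Exons of the antisense gene *Bach2os*, at 0, 2.24 and 4.16 against 1.48, 6.70 and 18.4, overlap those of *Bach2*, and reads of the 2 genes cannot be told apart where strand use is not stated. For this reason the text speaks of libraries labelled Bach2-deficient, and a direction given for it is not one that follows a measured loss of *Bach2*.

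IL-4 is the cytokine by which Tfh cells steer germinal center B cells toward IgG1 and IgE, and in T helper 2 (Th2) cells it is made together with IL-5 and IL-13 under the transcription factor GATA3. The genes of these cytokines lie side by side, with *Rad50* between *Il13* and *Il5*, and the introns of *Rad50* hold a control region of the locus. Alarmins, such as IL-25 and IL-33, are released by stressed tissue and act on cells that carry their receptors, among them Th2 cells and group 2 innate lymphoid cells.

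The cells carried the transcripts of the gate that defined them. *Cd4* ran from 2407 to 4131 normalized counts over the 6 libraries, *Cxcr5* from 1271 to 2207, and *Pdcd1*, the gene of PD-1, from 1462 to 2708. *Bcl6*, the lineage factor of Tfh cells, was present in each library, from 342 to 818. All 14 genes of a list of T and Tfh cell markers were detected and tested, and none was at 0 in any library. Of these, 4 were higher and 2 lower in the libraries labelled Bach2-deficient at an unadjusted limma p under 0.05, as were 10.1% and 10.2% of all genes tested. The 4 higher ones, *Cd4*, *Cd44*, *Bcl6* and *Tox2*, had no overlap between the groups, beside 14.6% of all genes tested that were apart in that direction. DESeq2 on 5 libraries put the 2 lower ones, *Cd3e* and *Icos*, past the thresholds of the study, as it did 0.322% of all genes in the higher and 0.553% in the lower direction.

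Of the 8 members tested, *Il4*, *Gata3* and *Il17rb* had all 3 libraries labelled Bach2-deficient above all 3 WT libraries, as had *Il13*, which was not tested. *Ccr8* and *Il10* had them all below. Over all genes tested, 14.6% were apart in the first direction and 12.2% in the second, where chance alone gives 10% for both together. Since the members were picked on this contrast, nothing is read from these shares for them. The name of the group thus covers genes that went up, genes that went down and, with *Rad50*, *Il4ra*, *Il1rl1* and *Il5*, genes whose groups overlapped.

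**Figure D1:**
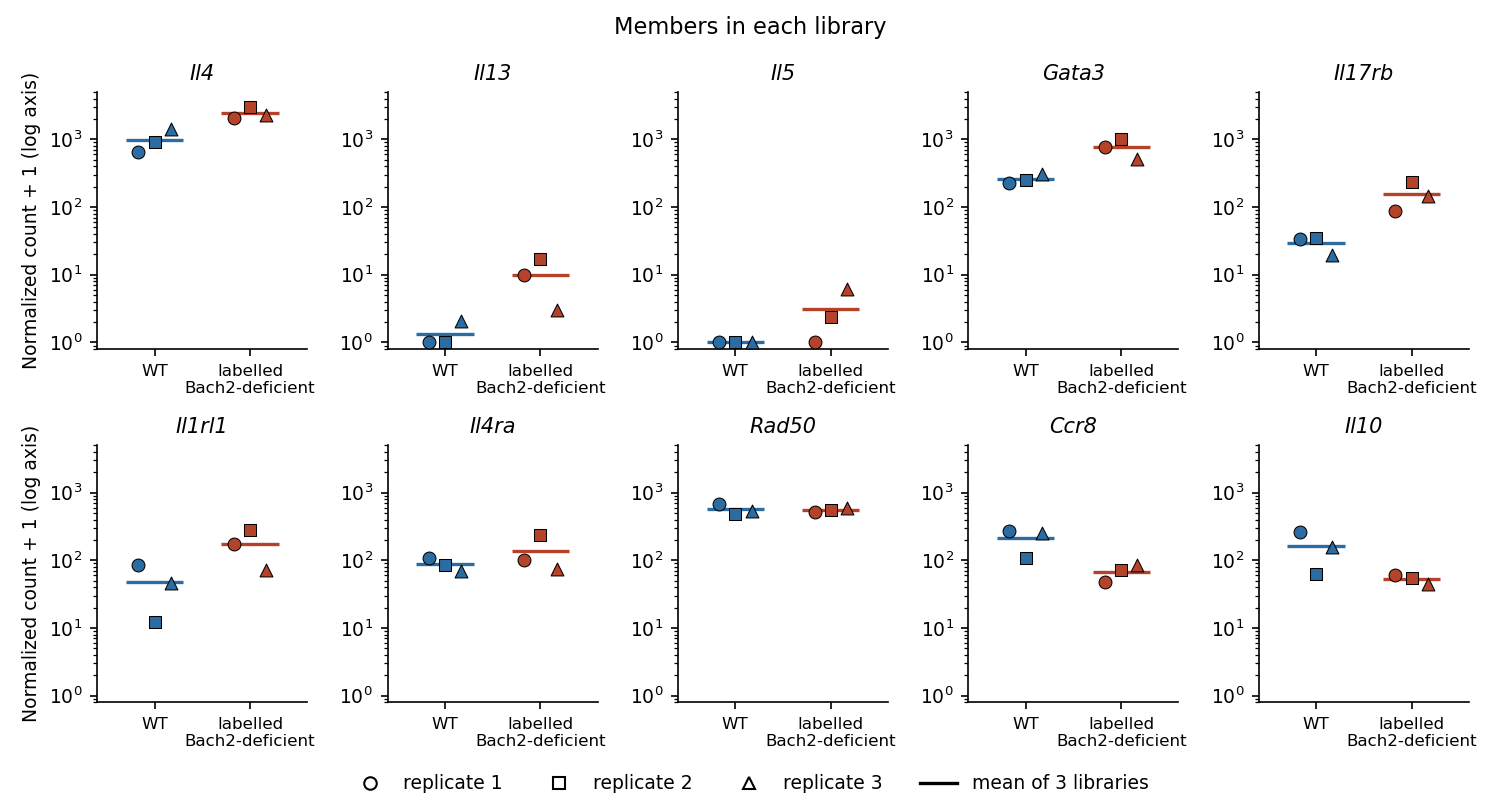
Normalized count plus 1, on a log axis, of each member in each library, with replicates 1, 2 and 3 as circle, square and triangle and the mean of 3 libraries as a line. *Il4*, *Il13*, *Gata3* and *Il17rb* are higher without overlap in the libraries labelled Bach2-deficient, *Ccr8* and *Il10* are lower without overlap, and *Il5*, *Il1rl1*, *Il4ra* and *Rad50* overlap.

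*Il4* (ENSMUSG00000000869.12, chr11:53602982-53618669, minus strand of GRCm38) encodes IL-4. The sequence from 250 bases before to 50 after its outer start site, and those of *Gata3*, *Il17rb* and *Il1rl1*, are shown because these are the members with the widest rises in mean level among those tested. They come from RefSeq on GRCm38.p6 and read 5′ to 3′ along the gene, at chr11:53618616-53618915 (minus strand) for *Il4*, chr2:9878551-9878850 (minus strand) for *Gata3*, chr14:30008847-30009146 (minus strand) for *Il17rb* and chr1:40429320-40429619 (plus strand) for *Il1rl1*. Capitals mark matches, on either strand, to TGANTCA, the core shared by AP-1 and Bach-Maf elements, or to the GATA motif WGATAR, where W is A or T and R is A or G.
Il4: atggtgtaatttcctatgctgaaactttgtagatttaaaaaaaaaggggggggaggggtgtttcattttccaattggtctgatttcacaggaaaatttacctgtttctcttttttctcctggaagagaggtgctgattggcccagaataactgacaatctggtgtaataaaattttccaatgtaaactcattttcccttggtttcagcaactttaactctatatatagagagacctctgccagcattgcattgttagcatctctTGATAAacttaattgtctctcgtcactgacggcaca
Gata3: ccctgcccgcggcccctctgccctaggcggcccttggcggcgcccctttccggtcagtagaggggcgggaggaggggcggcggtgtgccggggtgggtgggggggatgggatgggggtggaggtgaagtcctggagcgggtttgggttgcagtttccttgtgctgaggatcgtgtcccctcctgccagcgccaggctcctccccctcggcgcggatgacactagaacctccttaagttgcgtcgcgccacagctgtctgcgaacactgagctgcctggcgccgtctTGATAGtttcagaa
Il17rb: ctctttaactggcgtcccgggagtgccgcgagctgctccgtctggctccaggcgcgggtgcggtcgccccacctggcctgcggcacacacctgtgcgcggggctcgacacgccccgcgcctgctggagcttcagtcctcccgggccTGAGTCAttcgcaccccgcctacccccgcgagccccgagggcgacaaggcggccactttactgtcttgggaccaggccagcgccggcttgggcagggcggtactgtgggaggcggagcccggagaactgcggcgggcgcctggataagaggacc
Il1rl1: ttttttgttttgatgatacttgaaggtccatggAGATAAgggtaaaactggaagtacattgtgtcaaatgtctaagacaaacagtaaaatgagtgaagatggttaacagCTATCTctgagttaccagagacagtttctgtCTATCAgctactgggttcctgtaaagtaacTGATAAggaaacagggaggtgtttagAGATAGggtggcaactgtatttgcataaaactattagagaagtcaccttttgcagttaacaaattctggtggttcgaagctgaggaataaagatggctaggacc
The *Il4* window holds 1 GATA match, which begins 15 bases after the start, and no match to TGANTCA. The *Gata3* window likewise holds 1 GATA match, at 37 bases after the start. *Il17rb* holds the only TGANTCA match among the members, 104 bases before the start, and no GATA match. The *Il1rl1* window, that of the outer of its 2 start sites, holds 5 GATA matches between 217 and 54 bases before the start. RefSeq windows were found for 8 of the 10 members, with 10 start sites in all, and 8 of these windows hold a GATA match and 1 a TGANTCA match. Among all 32851 mouse windows of the table, 29.8% hold a GATA match and 7.81% a TGANTCA match. A match is a run of letters and not a measured binding site, and a window without one says nothing of the factor.

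*Il4* was at 656, 911 and 1411 normalized counts in WT replicates 1, 2 and 3. In replicates 1, 2 and 3 labelled Bach2-deficient it was at 2038, 2977 and 2303. Every library of the second group was above every library of the first, and the lowest of them was 1.44 times the highest WT library. The group means were 993 ± 384 and 2439 ± 484 (SD, n = 3). The log2 fold change in limma, the difference between the groups' mean values of log2(normalized count + 1), was 1.35 (standard error 0.28). For every member it is this difference, and not the log2 ratio of the mean counts. WT replicate 1 was the lowest of the 6 libraries, and without it the log2 fold change was 1.09. In bulk samples such as these, fewer cells that make a transcript and less of it per cell cannot be told apart. Behind the lowest value stood 650 reads, if 1 step of the values in that library is 1 read.

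*Il13* (chr11:53631324-53634702) encodes IL-13, which acts on epithelium and smooth muscle, and its start site lies 16.0 kb from that of *Il4*. It was listed at 0, 0 and 1.04 normalized counts in WT and at 8.87, 16.1 and 2.05 in those labelled Bach2-deficient. These values stand for 0, 0 and 1 reads against 6, 24 and 2. All 3 libraries labelled Bach2-deficient were above the WT libraries, at a level close to the limit of detection. Of the 32 reads of that group, 24 came from replicate 2 alone, and the WT group had 1 read.

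*Il5* (chr11:53720794-53725106) encodes the growth factor of eosinophils. It was at 0 in all 3 WT libraries and at 0, 1.34 and 5.11 normalized counts in replicates 1, 2 and 3 labelled Bach2-deficient. The groups overlap, since replicate 1 of the second group had no read either. With 7 reads against 0, scaled by the size factors, the ratio is 2.11 if 3 reads are taken as the floor over the WT group. This figure takes the 7 reads as exact, so it is not a lower bound on the difference. Of the 7 reads 5 came from replicate 3, and the 2 others alone do not exceed that floor. Exons of the antisense gene *Gm12214* overlap those of *Il5*, so some of these few reads may be its own. Of the type 2 cytokine genes of the locus, *Il4* was therefore abundant in every library, while *Il13* and *Il5* were at most at 16.1 and 5.11 normalized counts in any.

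*Rad50* (chr11:53649519-53707319), which encodes a subunit of the Mre11 DNA repair complex and lies between *Il13* and *Il5*, showed no such pattern. Its normalized counts were 667, 487 and 539 in the WT libraries and 522, 557 and 587 in the libraries labelled Bach2-deficient. The ranges overlap, and in 5 of the 9 pairs of 1 library from each group the library labelled Bach2-deficient was the higher. The means were 564 ± 92.9 and 555 ± 32.7 (SD, n = 3). The log2 fold change was -0.0117 (standard error 0.22), and 0.115 without WT replicate 1. The sign also turned with quantile normalization, with library weights and in the count tests.

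Around the 4 members on chromosome 11, 13 other genes of a list of neighbours were in the table, 9 of them tested. None of these 9 had an unadjusted limma p under 0.05 in the fit to all 6 libraries, where 10.1% of all genes tested were higher and 10.2% lower at that level. With quantile normalization, or without replicate 3 labelled Bach2-deficient, the list, which also holds *Ccni*, had 2 such genes in place of 1, and with library weights, under which 24.3% of all genes were higher and 22.8% lower at that level, 4 of the 9 had such a p, *Uqcrq* and *Kif3a* among them. Of the 9, 1 gene, *Slc22a5*, was higher without overlap, at 54.5, 75.2 and 42.6 against 88.7, 85.8 and 89.0 normalized counts. Over all genes tested, 14.6% were apart in this direction. *Kif3a*, which lies next to *Il4* on its other side, was at 80.7, 94.2 and 119.6 against 109.4, 210.4 and 149.3, with overlap. *Irf1*, with a start site 151 kb from that of *Il4*, was at 1230.4, 1333 and 1450 against 1363, 1233 and 1105, also with overlap. *Hspa4*, *Zcchc10*, *Aff4*, *Uqcrq*, *Sept8* and *Pdlim4* overlapped between the groups too, with log2 fold changes of -0.11, -0.47, 0.18, 0.32, 1.99 and 0.37. The value of *Sept8* carries a standard error of 1.30 and rests on WT replicate 1, where the gene was listed at 0, for without that library it was 0.22. *Gdf9*, *Slc22a4*, *P4ha2* and *Csf2* were under the minimum and not tested. *Ccni*, placed on the list in error, lies on chromosome 5, and is the 1 gene of its 10 tested genes with an unadjusted limma p under 0.05. Its normalized counts were 799, 1014 and 842 against 2143, 1816 and 1413.

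**Figure D2:**
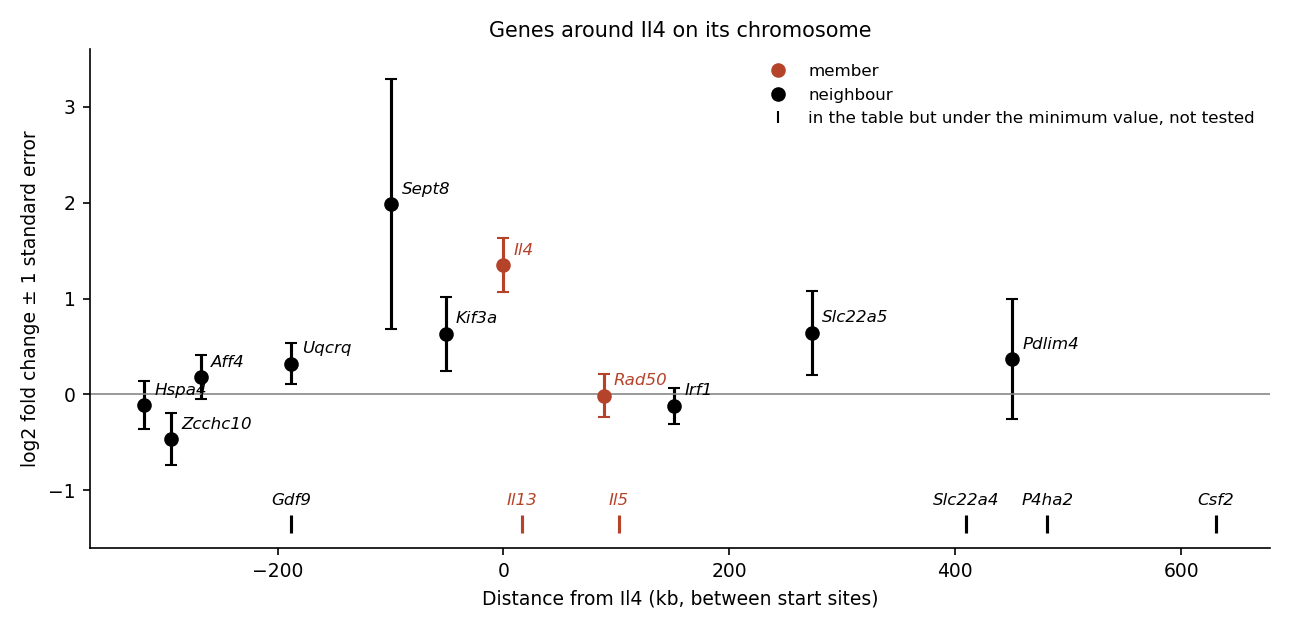
Log2 fold change with 1 standard error of each tested gene around *Il4*, against the distance of its start site from that of *Il4* in kb, with members in red and genes under the minimum value as ticks. *Il4* is at 1.35, *Rad50* beside it at -0.0117, and the standard error of *Sept8*, 1.30, is the widest of those drawn.

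*Gata3* (ENSMUSG00000015619.10, chr2:9857078-9890034, minus strand) encodes the zinc finger factor that directs the Th2 fate and binds GATA motifs. In WT replicates 1, 2 and 3 it was at 227, 251 and 309 normalized counts. The libraries labelled Bach2-deficient had 758, 1014 and 505. The groups did not overlap, and the WT libraries lay within 1.36-fold of each other while the others spanned 2.01-fold. The means were 262 ± 42.0 and 759 ± 254 (SD, n = 3). The log2 fold change was 1.48 (standard error 0.29), or 1.39 without WT replicate 1. Exons of *Gm13256*, on the opposite strand, and of *9230102O04Rik*, on the same strand, overlap those of *Gata3*, and since the sources used here do not say whether counting used the strand, reads from them cannot be told apart from those of *Gata3*.

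A list of 37 other regulators of *Il4* and *Gata3* was read from the fit over all genes. Of the 35 tested, 0 passed the limma thresholds of the study, an adjusted p under 0.01 with more than a 2-fold change, as did 0 (0%) of all 11296 genes tested. At an unadjusted limma p under 0.05, 12 were higher and 2 lower, beside 1144 (10.1%) and 1157 (10.2%) of all genes tested, and the median log2 fold change was 0.43 beside 0.0818 over all genes. The list was drawn up with results of these data known, so the counts are no independent sign of a direction. *Satb1*, a chromatin organizer, was at 507, 680 and 334 normalized counts in WT and at 1666, 2428 and 1106 in the libraries labelled Bach2-deficient (log2 fold change 1.76, limma adjusted p = 0.141). *Jund*, *Ikzf1* and *Ets1* had log2 fold changes of 1.09, 0.91 and 0.78, with no overlap between the groups. Of the 35, 12 were higher and 2 lower without overlap, beside 14.6% and 12.2% of all genes tested. The 2 lower ones were *Batf* and *Zbtb32*, with log2 fold changes of -0.67 and -2.02. DESeq2 on the 5 libraries with recovered reads, 2 WT and 3 labelled Bach2-deficient, put *Satb1* and *Gfi1* past the same thresholds, where it called 35 (0.322%) of 10857 genes higher and 60 (0.553%) lower. The quasi-likelihood test of edgeR on those libraries called 0 genes. *Gfi1* was at 245, 92.0 and 58.2 normalized counts in WT and at 344, 322 and 177 in the libraries labelled Bach2-deficient. Its groups overlapped through WT replicate 1, which the count tests left out, and its limma adjusted p was 0.204. The count of 12 depended on the libraries and the settings: it was 10 without WT replicate 1, 6 and 16 without replicates 1 and 3 labelled Bach2-deficient, 4 once a trend in length and GC content was removed from each library, and 20 with library weights. The share of all genes tested that were higher moved with these settings, to 5.10% with the trend removed and 24.3% with weights, so the count is not to be read against 10.1% in each case. The count of 2 lower genes was 0 without replicate 1 or replicate 2 labelled Bach2-deficient, and 3 with the trend removed.

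*Il17rb* (ENSMUSG00000015966.17, chr14:29996135-30008896) encodes the subunit of the IL-25 receptor that binds the alarmin. Its normalized counts were 32.3, 33.7 and 18.7 in the WT libraries. Those labelled Bach2-deficient were at 85.7, 231 and 145. The lowest of the second group was 2.55 times the highest of the first, the widest such gap among the members tested. The means were 28.2 ± 8.26 and 154 ± 73.1 (SD, n = 3). The log2 fold change was 2.34 (standard error 0.53), and 2.46 without WT replicate 1. The WT values rest on 30 and 18 reads in replicates 2 and 3, so counting adds to their error. Exons of *Il17rb* overlap those of *Actr8* on the opposite strand, and without stated strand use their reads cannot be told apart. *Actr8* itself was at 228, 192 and 228 against 223, 195 and 234 normalized counts, and so did not move with *Il17rb*.

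*Il1rl1* (ENSMUSG00000026069.15, chr1:40429570-40465415) encodes ST2, the receptor of IL-33, and has start sites for a membrane form and a soluble form that counts per gene do not separate. It was at 82.8, 11.2 and 44.7 normalized counts in WT and at 171, 275 and 71.6 in those labelled Bach2-deficient. The groups overlap, since WT replicate 1 was above replicate 3 labelled Bach2-deficient, and in 8 of 9 pairs the library labelled Bach2-deficient was higher. WT libraries differed among themselves by 7.38-fold, the widest spread of any member with values above 0 throughout, and replicate 2 had 10 reads. The means were 46.2 ± 35.8 and 173 ± 102 (SD, n = 3). The log2 fold change was 2.07 (standard error 0.74). It was 2.68 without WT replicate 1 and 1.29 without WT replicate 2.

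*Il4ra* (ENSMUSG00000030748.9, chr7:125552120-125579474) encodes the alpha chain shared by the receptors of IL-4 and IL-13. WT libraries were at 106.0, 84.1 and 67.6 normalized counts, and those labelled Bach2-deficient at 99.0, 233 and 73.6. Only replicate 2 of the second group exceeded the WT range, and 6 of 9 pairs were higher in the library labelled Bach2-deficient. The log2 fold change of 0.49 (standard error 0.49) was about the size of its error, became 0.66 without WT replicate 1 and 0.0155 without replicate 2 labelled Bach2-deficient, and turned to -0.20 with the length and GC trend removed. *Il4ra* shares exon sequence with the antisense gene *Gm44876*, with the same doubt about reads as for *Gata3*.

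The receptors' partners were read from 2 further lists. Beside *Il17rb* and *Il1rl1*, 14 of 17 genes of the alarmin receptor families were tested, with 2 higher and 1 lower at an unadjusted p under 0.05 (10.1% and 10.2% of all genes), 0 past the limma thresholds and a median log2 fold change of 0.44. The count of 2 became 6 with library weights, under which 24.3% of all genes tested were higher, and 0 when replicate 2 labelled Bach2-deficient was left out. The median ran from 0.26 without WT replicate 1 to 0.67 without WT replicate 2. *Il17ra*, which pairs with *Il17rb*, was at 149, 359 and 272 against 764, 576 and 329 normalized counts, with overlap. *Il1rap*, which pairs with *Il1rl1*, was at 28.3, 116 and 105.0 against 78.3, 81.1 and 113.5, with overlap as well. *Irak1* was higher without overlap (log2 fold change 0.95), *Traf3ip2*, the adaptor of the IL-17 receptor family, was lower without overlap (-1.27), and *Crlf2*, of the receptor of the alarmin TSLP, was at 0.63. Beside *Il4ra*, 14 of 16 genes of IL-4 receptor signalling were tested, with 2 higher and 2 lower at an unadjusted p under 0.05, 0 past the limma thresholds and a median of 0.41. The count of higher genes ran from 0 with the length and GC trend removed (5.10% of all genes tested) to 8 with weights (24.3%), and that of lower genes was 2 throughout. The median fell to 0.25 without replicate 2 labelled Bach2-deficient. The other chains of the receptors, *Il2rg* and *Il13ra1*, were lower without overlap, from 4171, 3772 and 4360 to 1729, 2212 and 2855 and from 176, 151 and 80.1 to 57.6, 14.1 and 17.4 normalized counts. The kinase genes *Jak3* and *Tyk2* had log2 fold changes of 0.91 and 1.34, with limma adjusted p of 0.185 for each.

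*Ccr8* (ENSMUSG00000042262.5, chr9:120092114-120094906) encodes the receptor of the chemokine CCL1, found on Th2 cells and on regulatory T (Treg) cells, and went the other way. The WT libraries were at 270.5, 107 and 254 normalized counts. The libraries labelled Bach2-deficient were at 47.3, 70.4 and 83.9. All of these lay under the lowest WT value, that of replicate 2. The means were 210.3 ± 90.2 and 67.2 ± 18.5 (SD, n = 3). The log2 fold change was -1.56 (standard error 0.46), and -1.32 without WT replicate 1. The gene of its ligand, *Ccl1*, varied more within the groups than between them, at 1660.3, 13.5 and 175 against 1.48, 415 and 36.8 normalized counts.

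*Il10* (ENSMUSG00000016529.5, chr1:131019845-131024974) encodes IL-10, which restrains inflammation and is made by Treg cells and by many effector T cells. It was at 262, 61.7 and 155 normalized counts in the WT libraries. In those labelled Bach2-deficient it was at 59.1, 54.3 and 43.0. The groups did not overlap, but by a narrow margin, 61.7 in WT replicate 2 against 59.1 in replicate 1 of the other group. WT values spanned 4.25-fold and the others 1.38-fold. The means were 159.7 ± 100.5 and 52.1 ± 8.29 (SD, n = 3). The log2 fold change was -1.38 (standard error 0.55), and it was -0.91 without WT replicate 1 and -1.94 without WT replicate 2. Of 13 genes of the IL-10 receptor and of *Il10* regulators, all tested, 1 was higher at an unadjusted p under 0.05 and 0 lower (10.1% and 10.2% of all genes tested). The count of 1 was 0 without replicate 1 labelled Bach2-deficient and 4 without replicate 3, where 463 and 1477 of all genes were higher. With library weights, under which 24.3% of all genes tested were higher, it was 7. In the fit to all libraries that gene was *Il6st*, higher without overlap (log2 fold change 0.89), and *Il6ra*, *Stat3* and *Il21* were at 0.81, 0.44 and -0.48. Of the neighbours of *Il10*, 3 were tested: *Mapkapk2* was higher without overlap (1.06), *Fcmr* lower without overlap (-3.22), and *Eif2d* at -0.31. *Fcmr* reached the minimum value through the WT libraries alone, so its direction was fixed by the filter.

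**Figure D3:**
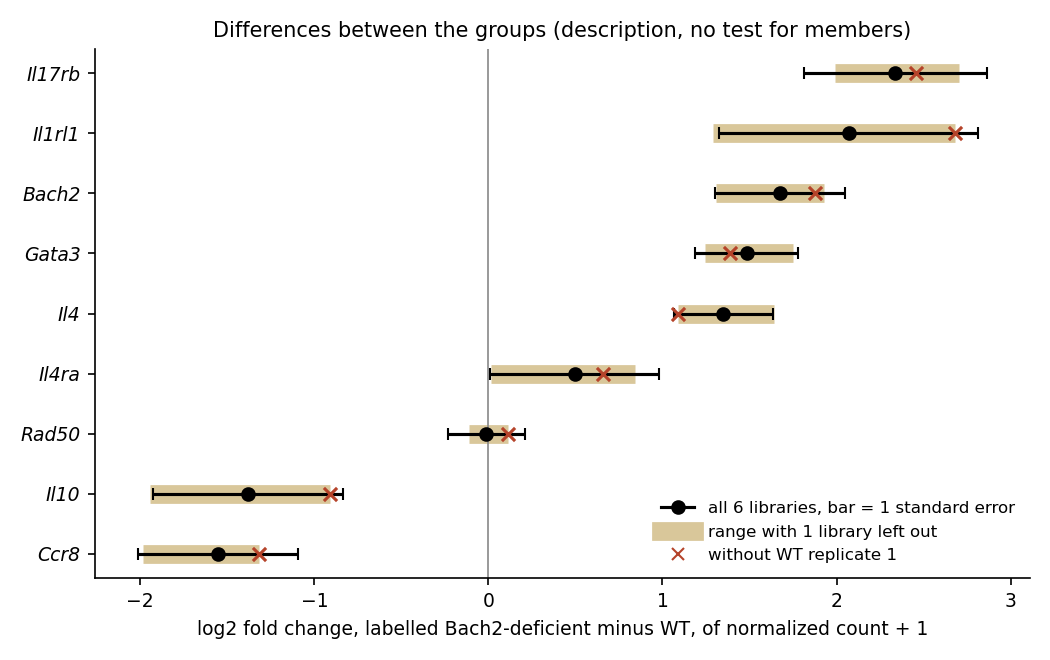
Log2 fold change of the 8 members tested and of *Bach2*, all 6 libraries as points with 1 standard error, the range with 1 library left out as bars and the value without WT replicate 1 as crosses. *Il17rb* lies highest at 2.34 and *Ccr8* lowest at -1.56, and the ranges of *Il1rl1* (1.29 to 2.68) and *Il10* (-1.94 to -0.91) are among the widest.

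With transcript length taken into account, the members differed in level by orders of magnitude. In the WT libraries *Il4* stood first, at 1641 ± 635 normalized counts per kb of its longest transcript (SD, n = 3), followed by *Ccr8* at 179 ± 76.8, *Il10* at 122 ± 76.7, *Rad50* at 109 ± 18.0 and *Gata3* at 81.6 ± 13.1. *Il4ra* at 16.3 ± 3.66, *Il17rb* at 11.0 ± 3.21 and *Il1rl1* at 8.72 ± 6.75 came next, and *Il13* at 0.288 ± 0.498 and *Il5* at 0 came last. Every library separated *Il4* from *Ccr8*, *Gata3* from *Il4ra* and *Il1rl1* from *Il13*, and all other neighbours in this order overlapped. In the libraries labelled Bach2-deficient *Il4* was at 4032 ± 800.1 per kb, *Gata3* followed at 236 ± 79.1, ahead of *Rad50* at 108 ± 6.35, and these steps and that from *Rad50* to *Il17rb*, at 59.8 ± 28.4, were free of overlap. *Il17rb*, *Ccr8* at 57.2 ± 15.7, *Il10* at 39.8 ± 6.33, *Il1rl1* at 32.6 ± 19.2 and *Il4ra* at 25.7 ± 16.3 each overlapped with the next of these, while the step from *Il4ra* to *Il13*, at 7.47 ± 5.82, was free of overlap, and *Il5* at 1.40 ± 1.73, which overlapped with *Il13*, was last. *Gata3* thus stood below *Ccr8*, *Il10* and *Rad50* in WT and above all of them in the other group. Among 14685 genes with a known length, *Il4* ranked 712, 456 and 364 per kb in WT replicates 1, 2 and 3 and 195, 129 and 166 in the others. With the length of all exons joined in place of the longest transcript, the level of *Il4* was 809 and 1988 per kb in the 2 groups, and it still stood first.

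**Figure D4:**
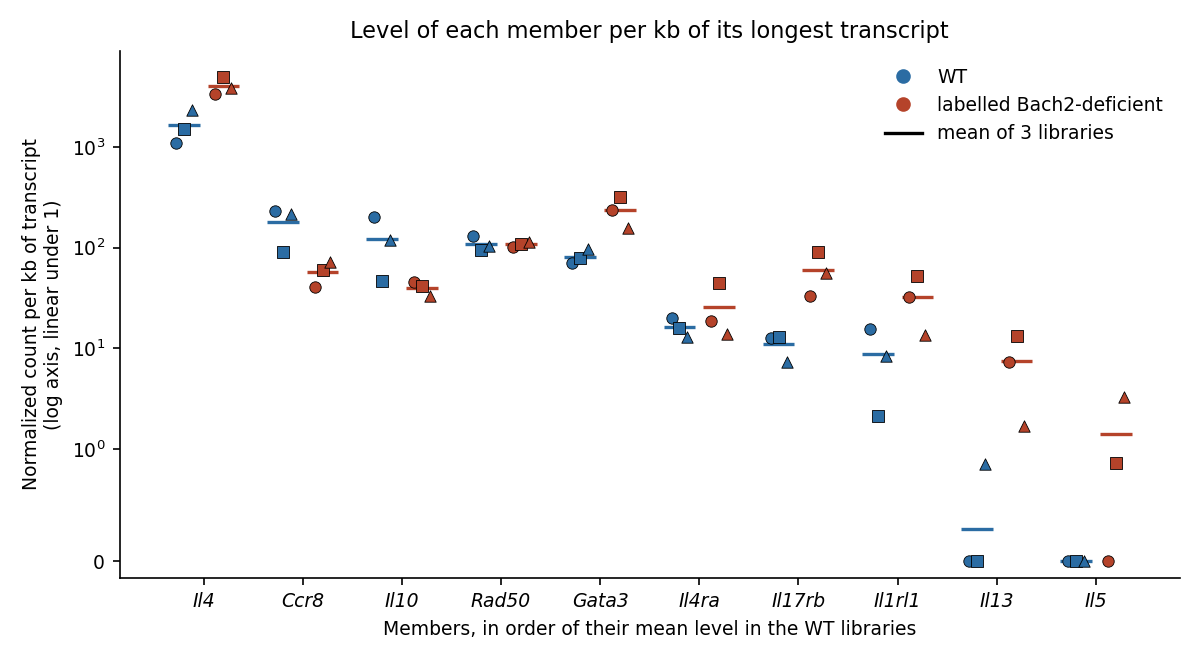
Normalized count per kb of longest transcript of each member in each library (log axis, linear under 1), with the mean of 3 libraries as a line, in order of the WT means. *Il4* is far above all other members in both groups, at means of 1641 and 4032, and *Gata3* rises past *Ccr8*, *Il10* and *Rad50* in the libraries labelled Bach2-deficient.

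The profiles of *Il4* and *Gata3* over the 6 libraries were compared as a description, since genes chosen for a difference between the same groups resemble each other by that choice. The root mean square difference of their log2 values, each centred on its own mean, was 0.310, where the median over all other genes tested was 0.890 from *Il4* and 0.936 from *Gata3*. *Il17rb*, *Il4ra*, *Rad50* and *Il1rl1* differed from *Il4* by 0.793, 0.757, 0.810 and 1.13, and *Ccr8* and *Il10* by 1.56 and 1.58. The tested genes outside the group with the smallest difference from *Il4* were *Snn* (0.0997), *Tmem127* (0.180), *St3gal2* (0.212) and *Plekhm1* (0.213). For *Gata3* they were *Tmem164* (0.147), *Nudt3* (0.181), *Pik3r2* (0.186) and *Ulk3* (0.186). *Snn* was at 27.3, 39.3 and 67.6 normalized counts in WT and at 99.0, 150.1 and 97.2 in the other group, and so shared with *Il4* its lowest value in WT replicate 1 and its highest in replicate 2 labelled Bach2-deficient. That last library had the highest value of 6 of the 10 members, and WT replicate 1 of 3, *Rad50*, *Ccr8* and *Il10*.

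Among 25 other effector genes of type 2 cells, 17 were tested, with 4 higher and 2 lower at an unadjusted p under 0.05 (10.1% and 10.2% of all genes) and 0 past the limma thresholds. The median log2 fold change was 0.47, which became -0.11 without WT replicate 1 and 0.85 without WT replicate 2. Of the 4, *Il6* reached the minimum value through the libraries labelled Bach2-deficient alone, so its direction was fixed by the filter, and the count was 2 without replicate 2 or replicate 3 of that group. *Epas1*, of a hypoxia-inducible factor, was at 2.02, 5.61 and 11.4 normalized counts in WT and at 51.7, 334 and 147 in the libraries labelled Bach2-deficient (log2 fold change 4.46, limma adjusted p = 0.141), and passed the thresholds in DESeq2 on 5 libraries. *Hpgds*, of a prostaglandin D2 synthase, had a log2 fold change of 1.19, and *Penk* and *Anxa2* had -1.98 and -0.85. *Il9*, *Il31*, *Il3*, *Il24* and *Ptgdr2* were not analysed here. For *Rad50*, 11 partners in DNA repair were tested, with 0 higher and 1 lower at an unadjusted p under 0.05 and a median of -0.17, and *Nbn*, *Xrcc5* and *Xrcc6* were at -0.90, -0.81 and -0.46.

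**Figure D5:**
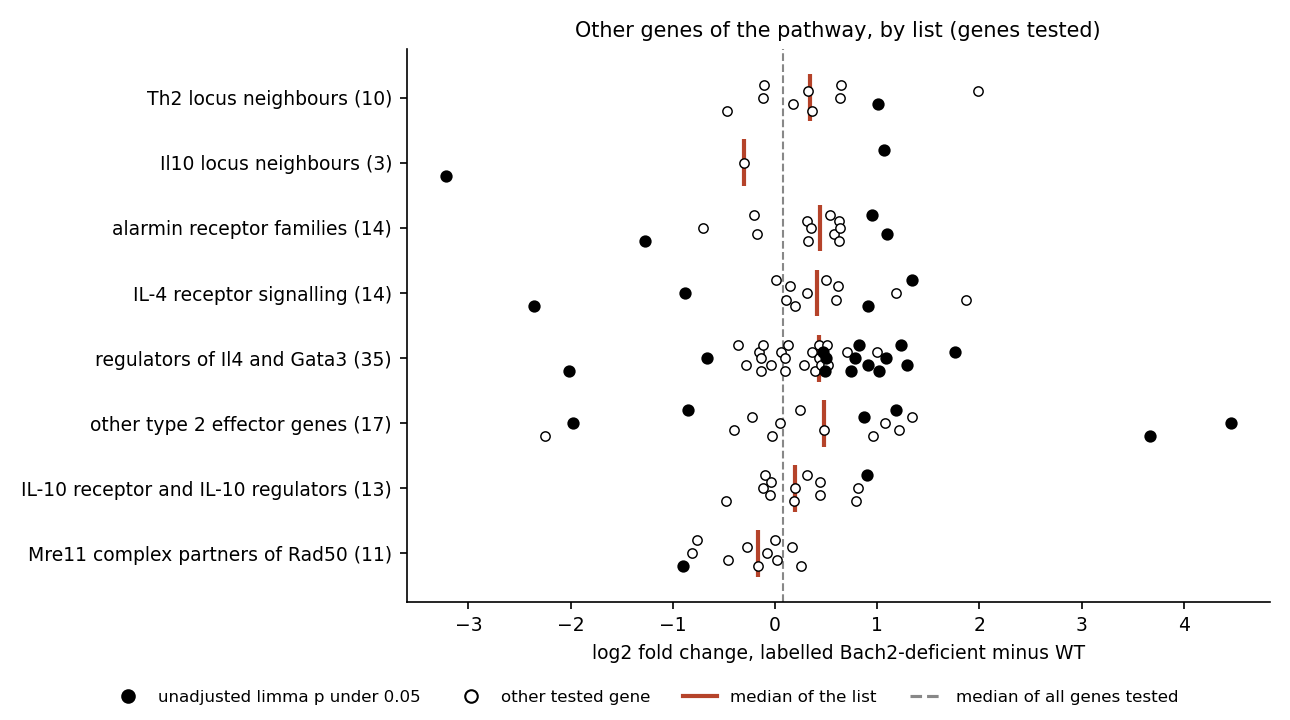
Log2 fold change of each tested gene of 8 lists around the members, filled where the unadjusted limma p is under 0.05, with the median of each list in red and that of all genes tested, 0.0818, dashed. List medians run from -0.31 for 3 neighbours of *Il10* to 0.47 for 17 type 2 effector genes. The first of these turns to between 0.35 and 0.44 when any 1 WT library is left out, where only 2 of the 3 genes are tested.

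Transcript length moved with the difference between the groups. Across 11259 tested genes, which are not independent replicates, Spearman's rho of log2 fold change against the length of the longest transcript was 0.320. After removal of trends in length and GC content, the log2 fold change was 1.90 for *Il4*, whose transcript is the shortest of the members at 605 bases, 1.40 for *Gata3*, 2.39 for *Il17rb*, 1.80 for *Il1rl1*, -1.42 for *Ccr8* and -0.96 for *Il10*.

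*Il4*, *Gata3*, *Il1rl1* and *Il17rb* are also expressed by other cells than Tfh cells, whose markers were read as summed normalized counts per library. For mast cells and basophils, 7 of 12 markers were in the table, and they summed to 36.3, 96.5 and 33.3 in WT and to 105, 144 and 102 in the libraries labelled Bach2-deficient, higher in each. *Cpa3* was the most abundant, at a mean of 30.3, and *Fcer1a* and *Mcpt4* were at 0 in every library. *Mcpt8* and *Prss34* were among the markers not in the table. *Kit* accounts for much of the difference in that sum, at 5.05, 19.1 and 9.36 against 57.6, 50.9 and 32.7. For group 2 innate lymphoid cells, 10 of 11 markers summed to 1755, 1810.5 and 1643 against 1977, 2175 and 1797, with *Il2ra* the most abundant at 506 and *Hs3st1* at 0 throughout, and the groups overlapped. For eosinophils, 4 of 8 markers summed to 10.1, 79.6 and 60.3 against 66.5, 118 and 41.9, with overlap, led by *Ear2* at 46.6. For invariant NKT cells, 6 of 6 markers summed to 2108, 3255 and 3110.1 against 1408, 1668 and 1808, lower in each, led by *Cd160* at 1104. Of the 6, only *Tmem176a* was lower without overlap, *Klrb1b* was higher without overlap and past the thresholds in DESeq2 on 5 libraries, and their defining factor gene *Zbtb16* was at most 2.24 in WT and at 7.39, 17.4 and 3.07 in the others. Cells without CD4, PD-1 or CXCR5 on their surface lie outside the gate of the sort, yet *Lyz2*, a myeloid marker, had a mean of 3292. The part of cells other than Tfh cells in the values of the members was not tested.

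*Ccr8* and *Il10* are expressed by Treg cells, among other T cells, and some Treg markers were lower in the same libraries. The 10 of 10 markers in the table summed to 14516, 11659 and 15351 in WT and to 9899, 9002 and 9424 in the libraries labelled Bach2-deficient, lower in each, with *Ikzf2* the most abundant at a mean of 4163. *Foxp3* was at 222, 315 and 344 against 47.3, 140.0 and 91.0, and no marker was at 0. DESeq2 on 5 libraries put *Foxp3*, as the only 1 of the 10, past the thresholds, as it did 0.553% of all genes in the lower direction. Of the 10, 5 were lower without overlap, 4 of them at an unadjusted limma p under 0.05 (12.2% and 10.2% of all genes tested), whereas the other 5, *Ikzf2* among them, overlapped. The sum over markers of CD8 and NK cells, 7 of 7, was lower in each too, at 6418, 4085 and 3323 against 1469, 3181 and 1919.8, led by *Nkg7* at 2648, which made up 77.9% of the sum and was its only gene without overlap. CD8 and NK cells, too, lie outside the gate. It has no step for Foxp3, so follicular regulatory T cells, which carry CXCR5, PD-1 and Foxp3, lie inside it. The part of CD8, NK and Treg cells, follicular or not, in the values of *Ccr8* and *Il10* was not tested. The summed markers of T and Tfh cells (14 of 14, from 77618 to 121603, led by *Ptprc* at 25660), B cells (10 of 10, from 242 to 846, led by *Cd79b* at 178), myeloid cells (10 of 10, from 2031 to 8630, led by *Lyz2* at 3292) and naive T cells (8 of 8, from 4083 to 8442, led by *Il7r* at 1915) overlapped between the groups, with none of these markers at 0 in every library.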

How the data were processed

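The signal values, normalized counts per gene, were made by the authors, who aligned the reads, counted them per gene and divided by a size factor per library, and were used as deposited. The sources disagree on how: the paper names Tophat2, HTSeq and DESeq2, whereas the submitters' processing notes name STAR 2.5.2b, DESeq, R 3.5.1 and DESeq2 1.20.0 on GRCm38/mm10. Here R 4.3.3 was used with limma 3.58.1, edgeR 4.0.16 and DESeq2 1.42.0. All 14744 genes of the table were read, and no column was without a sample. The 11296 genes that reached a value of 10 in 3 libraries or more were fitted by limma on log2(value + 1) with a variance trend and Benjamini-Hochberg adjustment. The thresholds are those of the study, an adjusted p under 0.01 and more than a 2-fold change.

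The study's count test, DESeq2, needs whole reads. Dividing by the smallest step between values gave whole numbers, to within 0.001, for 100% of values in all 6 libraries. The count tests used 5 of them, 2 WT and 3 labelled Bach2-deficient. WT replicate 1 did not enter them, because its step of 1.01 lies too near 1 for the rule by which reads were accepted as recovered, and a count test with it was not run. Therefore limma on all 6 libraries came first and the count tests second. The floor of 3 reads covers counting error of the WT group only, and PCR copies cannot be told apart from separate molecules.

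Gene places and lengths come from GENCODE M21 on GRCm38, which matched 14329 genes by symbol and 356 by an older symbol, with 59 unmatched. Members and gene lists were chosen with earlier results of these data known. In each list the genes named are those with the lowest unadjusted p, up to 4, besides receptor partners, marker genes, locus neighbours, *Gfi1*, *Batf* and *Zbtb32*. A gene that this rule would name is not reported here. The procedures were tried first on simulated data. Alternatives run were pseudocounts of 0.5 and 5, no filter, a mean of at least 50, quantile normalization, TMM factors, no variance trend, library weights, removal of a length and GC trend, a replicate block, the count tests, and each library left out in turn.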

Additional observations from a re-analysis of the deposited data

How the results depend on the processing

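With 3 libraries per group no gene passed the limma thresholds, with all 6 libraries or with any 1 left out (0 to 0). Library weights, which gave WT replicate 1 a weight of 0.206 and replicate 2 labelled Bach2-deficient 5.54, called 561 genes higher and 567 lower, and DESeq2 on 5 libraries 35 and 60. Of genes of the pathway lists, weights called 17 higher and 6 lower, and DESeq2 3 higher. At an unadjusted limma p under 0.05, 463 genes were higher and 595 lower without replicate 1 labelled Bach2-deficient, and 532 and 668 without replicate 2, 2748 and 2580 with weights, and 574 and 1106 without trends in length and GC, against 1144 and 1157. A replicate block also put 0 genes past the thresholds and left 1017 and 1034 at an unadjusted p under 0.05, and deviations of replicates of the same number correlated at -0.07, 0.12 and -0.04.

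The log2 fold change of *Bach2* was 2.36 with weights and 1.81 in DESeq2, and ran from 1.31 to 1.93 with 1 library left out. That of *Il4* was 1.90 with the length and GC trend removed (left out, 1.09 to 1.64). *Il17rb* was at 3.08 with weights (left out, 1.99 to 2.70). *Il4ra* was at 1.40 with weights and -0.20 with the trend removed (left out, 0.0155 to 0.84). *Rad50* was at 0.0267 with quantile normalization, 0.0665 with weights, 0.0862 in DESeq2, 0.110 in edgeR and -0.30 with the trend removed (left out, -0.11 to 0.12). Left-out ranges were 1.25 to 1.75 for *Gata3*, 1.29 to 2.68 for *Il1rl1*, -1.99 to -1.32 for *Ccr8* and -1.94 to -0.91 for *Il10*.

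Among list genes, *Hspa4* was at 0.0524 with weights, 0.135 in DESeq2 and 0.158 in edgeR (left out, -0.26 to 0.16), and *Pdlim4* ran from -0.24 to 0.86 with 1 library left out and was at 1.51 with weights. With the trend removed, *Zcchc10* was at 0.0437, *Aff4* at -0.28 and *Stat3* at -0.18, and the median of all genes tested was -0.04 in place of 0.0818.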
